A study of Mus musculus with 4 samples.

Results

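The long H3K36me3 domains described here are 428 stretches of at least 80 kb on chromosomes 1 to 19, out of 10195 H3K36me3 regions in all. They come from chromatin immunoprecipitation followed by sequencing (ChIP-seq) of forebrain from CD1 mouse embryos, an outbred strain, at embryonic day 11.5. Each domain is a run of 5 kb bins that held at least 20 H3K36me3 ChIP tags and a ChIP to scaled input ratio of at least 2 (pseudocount 1), joined over gaps of at most 1 bin. The 4 groups held 1 library each: H3K4me3 ChIP, its input, H3K36me3 ChIP and its input. Each ChIP library was made from a pool of 36 forebrain pieces, so animals and the cell types of the forebrain cannot be told apart. The H3K4me3 ChIP (10 microlitres of antibody) and its input were amplified by whole-genome amplification (WGA) for 8 cycles. The H3K36me3 ChIP (15 microlitres of antibody) was not amplified, and the labels give its input as unamplified too. The mark and the amplification therefore cannot be told apart. No spread between replicates could be measured, and intervals below are exact 95% intervals that cover counting error only.

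H3K36me3 is trimethylation of lysine 36 of histone H3. The enzyme SETD2 places it behind elongating RNA polymerase II, so it lies over the bodies of transcribed genes and is usually absent from their promoters. H3K4me3, trimethylation of lysine 4, marks active and poised promoters. A long H3K36me3 stretch can be a single long gene or several transcribed genes side by side, and H3K4me3 along it can mark where promoters lie. Some of the longest genes of the genome are active in neural tissue. Coordinates refer to mouse build mm8. Gene annotation and sequence of that build were not used here, so domains are named by position and no gene is assigned to them.

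The domains were chosen by H3K36me3 ChIP and input tags, so widths and ratios from these 2 libraries are a description. They made up 4.2% of H3K36me3 regions but 18.2% of the length of all regions, 44.8 Mb, and held 12.2% of autosomal H3K36me3 ChIP tags. The rule itself was met by 9.76% of the 468817 autosomal 5 kb bins with an input tag. The median width was 95 kb, with 220 domains of 80 to 95 kb, 176 from 100 to under 150 kb, 28 from 150 to under 200 kb and 4 of at least 200 kb. The threshold cut through a smooth fall in numbers. The number of long domains also depends on the scaling of the input, with 18.1 per 100 covered Mb by library totals and 64.4 with background bins. Just inside the threshold lay 67 regions of 80 kb with a median of 2042 ChIP and 930 input tags and a median ratio of 4.94. Just outside lay 99 regions of 75 kb with medians of 1838 and 926 tags and a ratio of 5.20.

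**Figure D1:**
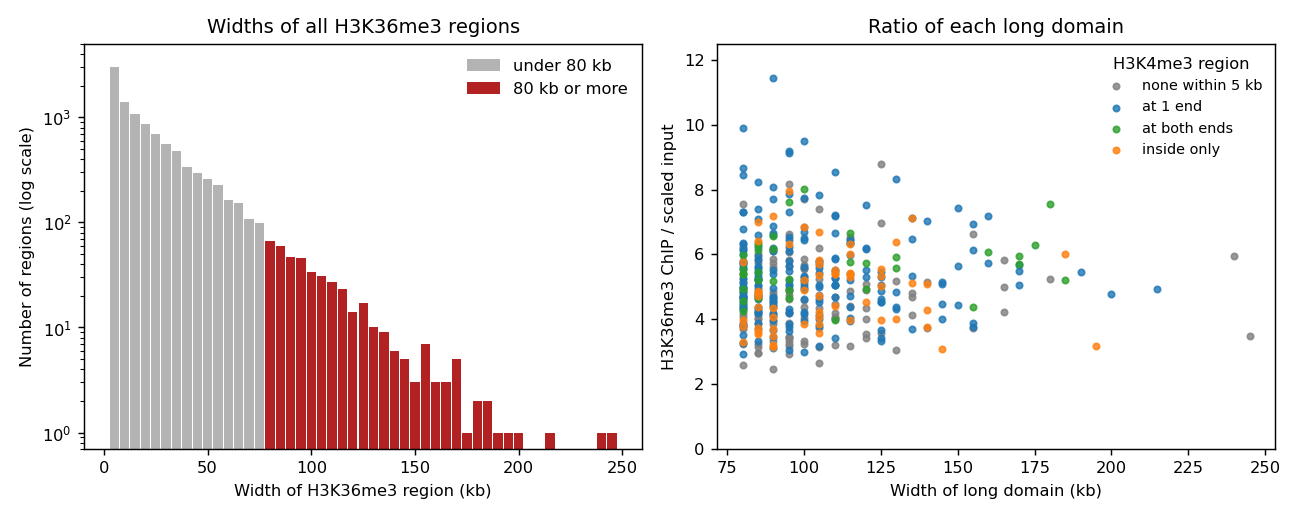
Left, number of H3K36me3 regions (log scale) by width in kb, with the 428 domains of 80 kb or more in red. Right, the ratio of H3K36me3 ChIP to scaled input of each long domain against its width in kb, coloured by where H3K4me3 regions lie; ratios run from 2.47 to 11.5, and wide and narrow domains overlap in ratio.

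The median ratio rose slightly over the width classes of long domains, with wide overlap between domains. It was 4.88 (interquartile range 4.15 to 5.84) at 80 to 95 kb and 5.09 (4.22 to 5.76) from 100 to under 150 kb. At 150 kb or more, in 32 domains, it was 5.57 (4.70 to 6.03). Among shorter regions it was 2.71 at 5 kb and 4.93 at 50 to 75 kb, so it did not rise from there to 80 to 95 kb. Over all long domains the ratio of ChIP to scaled input had a median of 5.02 (5th to 95th percentile 3.23 to 7.56) and ran from 2.47 to 11.5. Across the 428 domains, which share the same libraries, the rank correlation of width with ratio was 0.06. Width in kb by itself is part of the rule, as is the lowest ratio a bin may have. The domains were covered by 829 to 10285 H3K36me3 ChIP tags (median 2521) and 329 to 4006 input tags (median 1136), so counting error was small beside the spread between domains. Relative to the autosomal mean, the ChIP stood at 1.997 to 23.5 times (median 5.63).

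The widest domain lay on chromosome 13 (81850001 to 82095000, 245 kb) and was among the weaker ones. It held 3219 H3K36me3 ChIP tags, 2036 tags of the unamplified input, 644 H3K4me3 ChIP tags and 204 WGA input tags. The H3K36me3 ratio was 3.49 (3.30 to 3.69), and 4 of its 49 bins were bridged gaps, meaning bins that did not pass the rule but lay between bins that did. The next, on chromosome 12 (76795001 to 77035000, 240 kb), was stronger and nearly unbroken. Its tags numbered 9666, 3589, 732 and 302 in the same order of libraries, the ratio was 5.95 (5.72 to 6.18), and 205 kb of it passed without a gap. Neither of these domains had an H3K4me3 region within 5 kb.

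The third in width, also on chromosome 12 (109985001 to 110200000, 215 kb), joined stretches of unequal depth in both libraries. Its 7334 H3K36me3 ChIP and 3289 input tags gave a ratio of 4.92 (4.72 to 5.13), with 703 H3K4me3 ChIP and 231 WGA input tags. Single bins ranged from 17 to 661 ChIP tags, and the input varied with them. The bin with the most ChIP tags held 106 input tags and the one with the fewest held 16, so between these bins the ratio differed less than the ChIP. Its H3K4me3 region of 2 kb lay 3 kb from the end of lower coordinate. The domain on chromosome 4 (107960001 to 108160000, 200 kb, ratio 4.79, 4.51 to 5.08) had 3 H3K4me3 regions. The first ended 1 kb outside its end of lower coordinate, and the others began 116 kb and 158 kb inside. In the bin that held the middle of these, the H3K36me3 ChIP fell to 18 tags, while the 2 neighbouring bins held 75 and 95. The input there was 60 tags, against 26 in each neighbour.

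**Figure D2:**
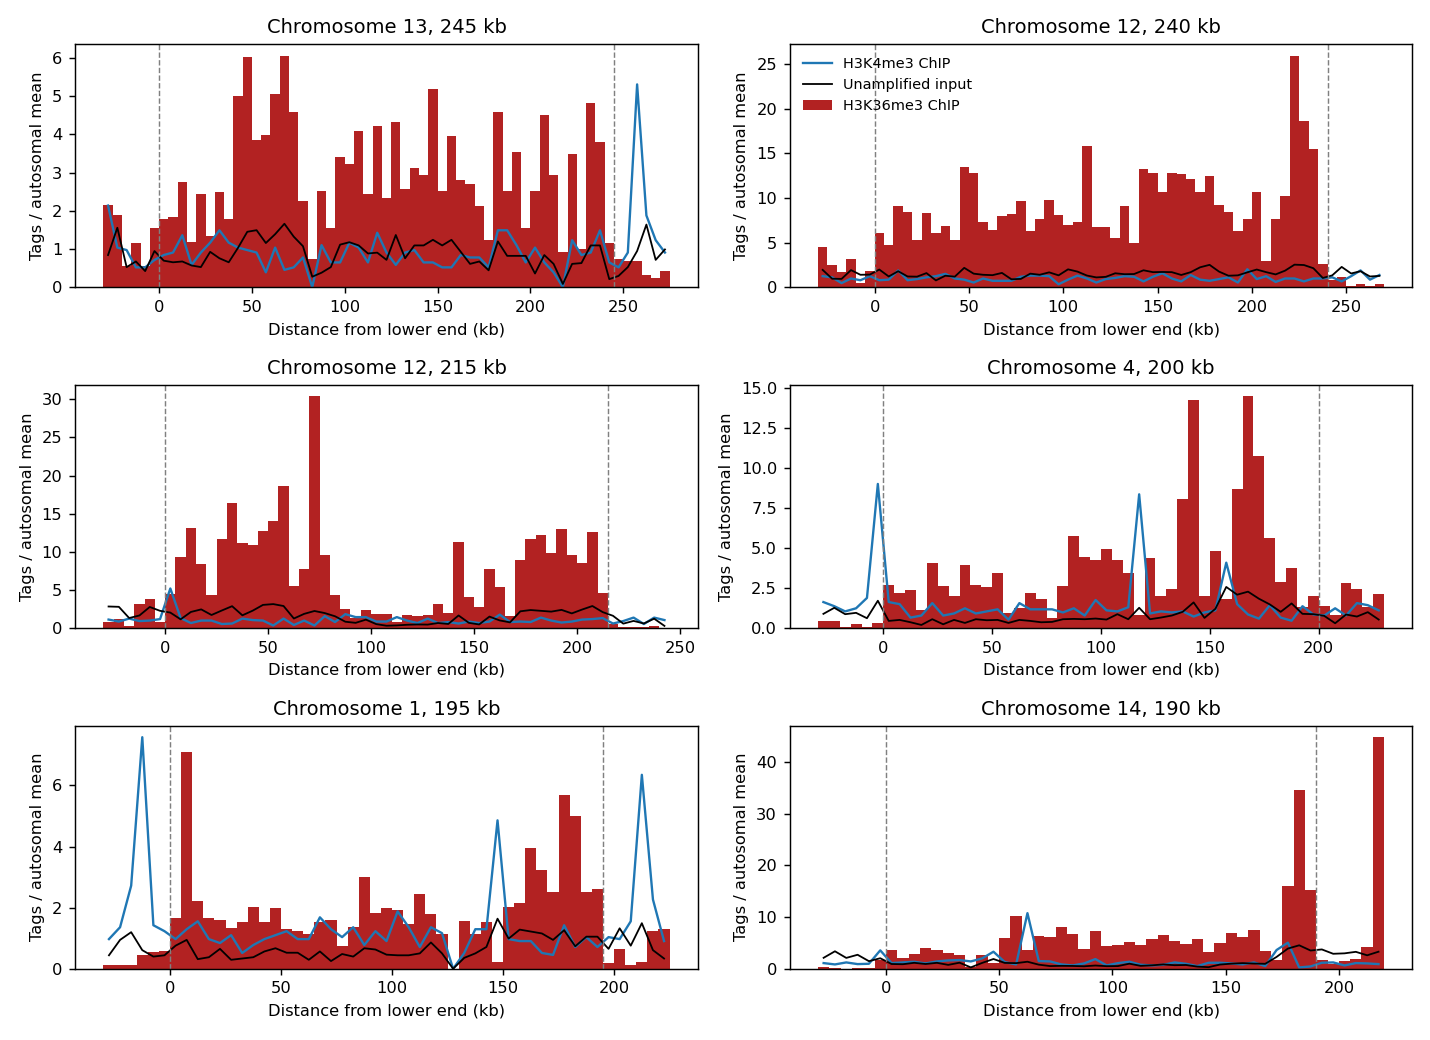
Tags per 5 kb bin divided by the autosomal mean of each library along the 6 widest domains and 30 kb on each side, against distance in kb from the end of lower coordinate; bars are the H3K36me3 ChIP, the blue line the H3K4me3 ChIP and the black line the unamplified input, and dashed lines mark the domain ends. The domains of 245 and 240 kb show no H3K4me3 peak within their ends, and in the 200 kb domain of chromosome 4 the bars drop where the blue line peaks.

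The other domains among the 12 widest measured 170 kb to under 200 kb. The weakest of these lay on chromosome 1 (60140001 to 60335000) with 1768 ChIP and 1226 input tags, a ratio of 3.18 (2.96 to 3.43). Its single H3K4me3 region lay 148 kb from the end of lower coordinate and held 54 H3K4me3 ChIP tags against 2 input tags, with 0 H3K36me3 ChIP tags and 21 of its input. The strongest lay on chromosome 7 (73250001 to 73430000, 180 kb) with 8443 against 2465 tags, a ratio of 7.56 (7.23 to 7.91). It carried 4 H3K4me3 regions of 2, 4, 5 and 4 kb, paired near its ends, with 97, 239, 253 and 346 H3K4me3 ChIP tags against 0, 2, 1 and 0 WGA input tags. Domains of chromosome 14 (29785001 to 29975000, 190 kb) and chromosome 5 (110340001 to 110510000, 170 kb) had 5 H3K4me3 regions each, 1 of those of chromosome 14 lying just outside its lower end, with H3K36me3 ratios of 5.45 (5.18 to 5.74) and 5.50 (5.23 to 5.79).

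A single H3K4me3 region well inside, 140 kb from the lower end, belonged to the domain of chromosome 9 (66170001 to 66355000, 185 kb, ratio 6.01, 5.65 to 6.39). All 37 of its bins passed the rule. On chromosome 11 (23210001 to 23395000, 185 kb, ratio 5.23, 4.85 to 5.63) an H3K4me3 region of 1 kb lay just outside each end. Chromosome 4 held a domain of similar form (147295001 to 147470000, 175 kb, ratio 6.29, 6.05 to 6.54), with 10105 ChIP and 3546 input tags. One of its H3K4me3 regions lay just outside the lower end and the other in the last kb of the higher end. On chromosome 1 (10030001 to 10210000, 180 kb, ratio 5.23, 4.88 to 5.60) the nearest H3K4me3 region was 5 kb away, just beyond the distance counted here.

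The 5 domains with the highest ratios were 80 to 100 kb wide, and each of these 5 had H3K4me3 at exactly 1 end. Over all 428 domains this held for 204 (47.7%). The next domain in rank, on chromosome 18 and not named here, had no H3K4me3 region within 5 kb. The ratio used to pick these domains is part of the rule. On chromosome 9 (72460001 to 72550000, 90 kb) there were 5772 ChIP and 1112 input tags, which gives a ratio of 11.5 (10.7 to 12.2). The domain of chromosome 5 at 134520001 to 134600000 (80 kb) reached 102 ChIP tags per kb, with 8179 against 1822 tags and a ratio of 9.91 (9.42 to 10.4). Chromosome 3 followed with a ratio of 9.51 (88775001 to 88875000), chromosome 2 with 9.18 (91330001 to 91425000) and another stretch of chromosome 5 with 9.14 (145025001 to 145120000). The order depended on the input used. Against the WGA input the ratios were 9.88, 17.2, 9.01, 4.56 and 14.7 in the same order, so the chromosome 2 domain was below the median of all long domains, 4.82. The unamplified input stood at 0.562 times its autosomal mean over the chromosome 2 domain and at 2.39 times over the domain at 134520001.

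At the other extreme, 5 of the 6 domains with the lowest ratios had no H3K4me3 region within 5 kb, against 129 of all 428 (30.1%). The ratio that picked them is part of the rule. The lowest, 2.47 (2.32 to 2.64), belonged to a stretch of 90 kb on chromosome 3 (27610001 to 27700000). Next came stretches of chromosome 7 with 2.59 (144400001 to 144480000) and chromosome 6 with 2.65 (17790001 to 17895000). The fourth, on chromosome 1 with 2.92 (170185001 to 170265000), had an H3K4me3 region at 1 end, with 325 H3K4me3 ChIP tags against 4 input tags. It was followed by chromosome 14 with 2.93 (86265001 to 86360000) and chromosome 11 with 2.96 (103660001 to 103745000). These 6 domains each joined 3 to 5 bridged bins. Over the chromosome 3 and chromosome 7 domains the unamplified input stood at 2.14 and 2.69 times its mean, and H3K36me3 ChIP at 5.24 and 6.90 times. The part of the input in these low ratios was not tested. Over all 428 domains the rank correlation of input depth with ratio was -0.03. On chromosomes 14 and 6 the ChIP itself was low, at 2.05 and 2.44 times its mean.

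The H3K4me3 libraries took no part in choosing the domains. H3K4me3 regions were called in 1 kb bins that held at least 10 tags in ChIP plus WGA input, with a one-sided exact binomial test (Benjamini-Hochberg adjusted p under 0.05, ratio at least 2). Of 165900 tested autosomal bins 7.23% were called, and they formed 7511 regions. An H3K4me3 region lay inside or within 5 kb (a gap of under 5 kb) of 299 long domains, or 69.9% (65.3 to 74.2). Among all H3K36me3 regions the share was 40.4%, and among those under 80 kb 39.1% (38.2 to 40.1). A longer region offers more room, and the share rose with width in every class. It was 17.0% (15.7 to 18.4) at 5 kb, 38.5% (36.5 to 40.4) at 10 to 15 kb, 53.1% (51.4 to 54.8) at 20 to 45 kb and 62.9% (59.9 to 65.9) at 50 to 75 kb. Among the long domains it went from 67.7% (61.1 to 73.9) at 80 to 95 kb to 71.6% (64.3 to 78.1) from 100 to under 150 kb, and it was met by 24 of 32 (interval 56.6% to 88.5%) at 150 kb or more. Intervals of the last 4 classes overlapped.

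Per length the order was different. Inside long domains lay 301 H3K4me3 regions, 6.72 per Mb (exact Poisson interval 5.99 to 7.53). H3K36me3 regions under 80 kb held 8.54 per Mb (8.14 to 8.96), and the autosomes outside H3K36me3 regions 2.59 (2.52 to 2.66). The long domains thus lay between these, and the intervals did not overlap. Regions of 50 to 75 kb, the class nearest in width, held 7.59 per Mb (6.91 to 8.32), and regions of 5 kb 6.50 (5.28 to 7.91). Both of these intervals overlapped that of the long domains, so the lower density was not particular to them. Densities count only H3K4me3 regions that overlap, while the shares above also count those within 5 kb. With H3K4me3 called against the deeper unamplified input, the density in long domains was 17.0 per Mb. Within the long domains the density showed no order by width, with 6.19 (5.12 to 7.41), 7.14 (6.03 to 8.41) and 7.03 (4.997 to 9.61) per Mb in the same 3 width classes.

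**Figure D3:**
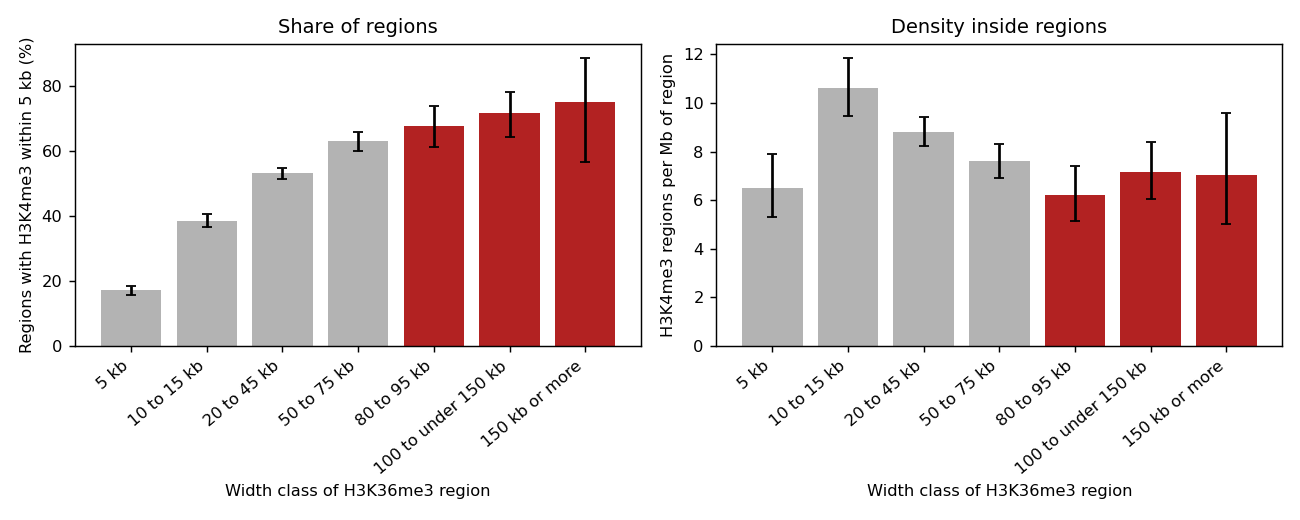
H3K36me3 regions by width class, with long domains in red: left, percent of regions with an H3K4me3 region within 5 kb (bars are exact binomial 95% intervals); right, H3K4me3 regions per Mb of region (exact Poisson 95% intervals). The share climbs from 17.0% to over 70%, while the density is highest at 10 to 15 kb, 10.6 per Mb.

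Most long domains had few H3K4me3 regions. No H3K4me3 region was found within 5 kb of 129 domains, 1 of 173, 2 of 73, 3 of 33 and at least 4 of 20. By place, 204 domains (47.7%, 42.8 to 52.5) had H3K4me3 at 1 end, with or without more inside, and 35 (8.18%, 5.76 to 11.2) at both ends. Another 60 (14.0%, 10.9 to 17.7) had it only in the interior, more than 5 kb from either end. Where exactly 1 H3K4me3 region was present, it lay within 5 kb of an end in 132 of 173 domains, 76.3% (69.3 to 82.4). These end windows made up 18.6% of the length of the domains and their 5 kb margins. Ends of lower and higher coordinate were used 71 and 61 times. With H3K4me3 called against the unamplified input, the share at an end was 61.9%. That input, which the rule uses to place the ends, stood at 2.55 times its mean in H3K4me3 regions at long domains. Its part in the share at an end was not tested. In H3K36me3 regions of 20 to 75 kb the share at an end was 86.6% (84.9 to 88.1), but there the end windows made up 47.3% of the length.

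The number of H3K4me3 regions said little about the length of a domain. The rank correlation of that number with width was 0.12 over the 428 domains. Among the 73 domains with 2 H3K4me3 regions, the pieces between them had a median of 50 kb and reached 189 kb. In the domains with the most H3K4me3 regions these were packed closely. On chromosome 19 (8805001 to 8915000, 110 kb) 9 H3K4me3 regions lay inside, and the neighbouring domain (8955001 to 9050000, 95 kb) held 7 more. The first had 4146 H3K36me3 ChIP and 1735 input tags (ratio 5.28, 4.99 to 5.58), with 1368 H3K4me3 ChIP against 173 WGA input tags. The second had 4044 and 1713 (ratio 5.21, 4.92 to 5.52), with 1040 against 134. Their H3K36me3 ratios were near the median of 5.02, and the input stood at 1.66 and 1.90 times its mean. H3K4me3 ChIP tags stood at 4.03 and 3.55 times their mean. Both domains needed bridged bins, 5 and 3 in number, to reach their width. Chromosome 4 (129090001 to 129240000, 150 kb) had 7 H3K4me3 regions and a ratio of 5.65 (5.38 to 5.92). Chromosome 17 (35430001 to 35540000, 110 kb) and chromosome 10 (79630001 to 79725000, 95 kb) had 6 each, with ratios of 5.87 (5.59 to 6.17) and 4.89 (4.68 to 5.11). Over the chromosome 10 domain the unamplified input was at 3.29 times its mean.

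H3K4me3 regions at long domains had the same median width, 2 kb, as those at other H3K36me3 regions, with a larger share of at least 3 kb. Of 515 such regions 108 were at least 3 kb wide, or 20.97% (17.5 to 24.7), against 14.5% (13.5 to 15.5) of 4588 at other H3K36me3 regions and 8.85% (7.74 to 10.1) of 2408 more than 5 kb from any. At H3K36me3 regions of 50 to 75 kb the share was 16.3% (13.9 to 18.8) of 910, an interval that overlaps that of the long domains. The widest single region was 9 kb at long domains and 27 kb at other H3K36me3 regions. At long domains the median tag number was 80 (interquartile range 49 to 126), against 71 (42 to 112) and 47 (31 to 78). The range of tags overlapped widely between the 3 places. Regions at the ends of long domains and inside them differed little, with 21.5% and 20.4% of at least 3 kb and medians of 78 and 83 tags.

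Across the end of a domain H3K36me3 changed within 5 to 10 kb. At the 274 ends with an H3K4me3 region, the H3K36me3 ChIP stood at 0.505 times its mean from 10 to 5 kb outside, 0.993 times in the last 5 kb outside, 5.73 times in the first 5 kb inside and 7.04 times in the next 5 kb. At the 582 ends without one, the values were 0.899, 1.41, 5.79 and 6.92. The drop at the border itself follows from the rule, since a bin outside did not pass. Farther out the rule leaves the values free except by the gap it bridges. From 50 to 45 kb outside the ChIP stood at 2.28 and 2.42 times its mean at both kinds of end. These flanks can hold other H3K36me3 regions. Another H3K36me3 region lay within 20 kb of at least 1 end in 218 of the 428 domains. In 97 domains it lay 10 kb away, the smallest gap that the rule leaves between regions.

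**Figure D4:**
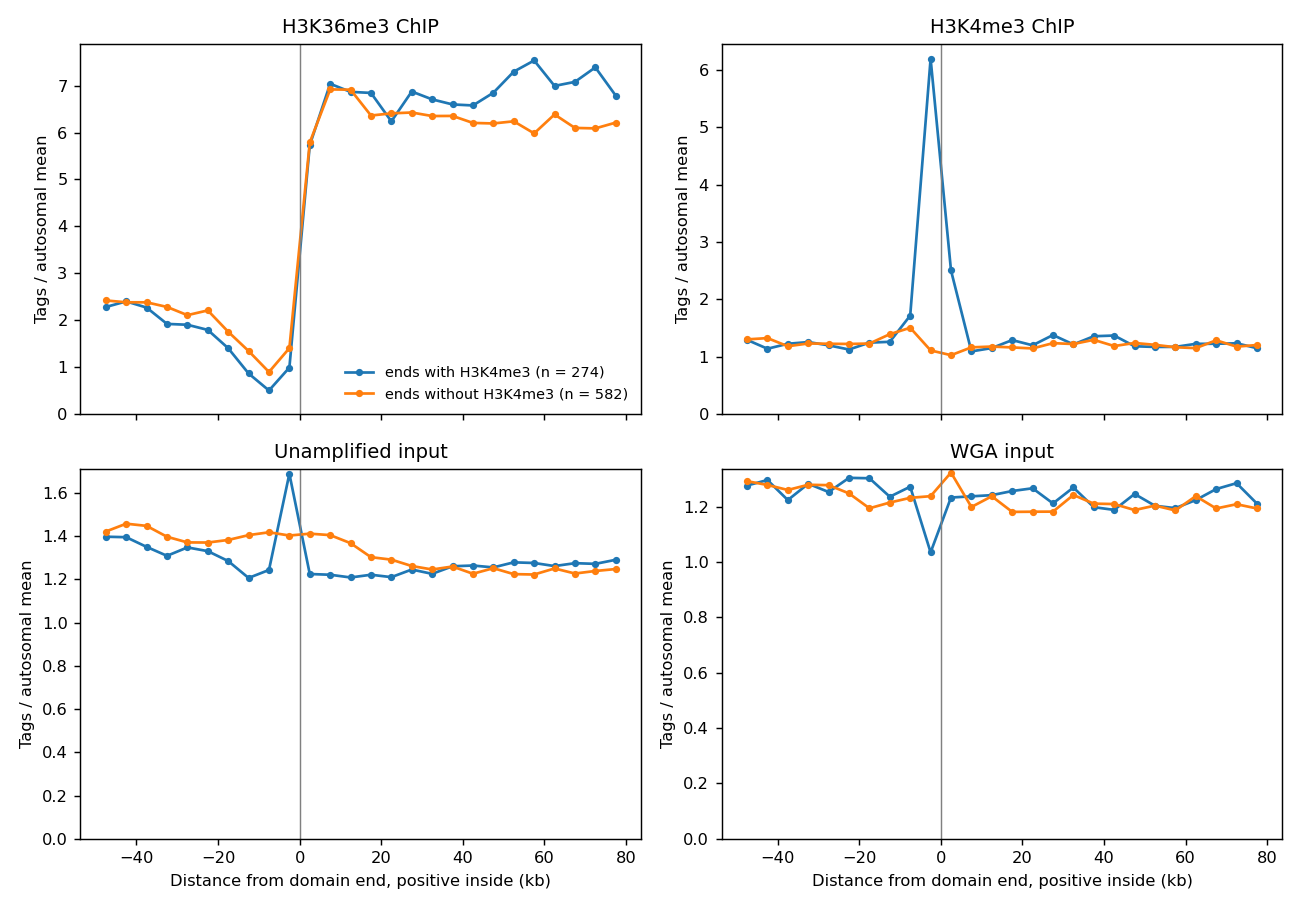
Tags divided by the autosomal mean in 5 kb steps from 50 kb outside to 80 kb inside the ends of long domains, for 274 ends with and 582 ends without an H3K4me3 region, in each of the 4 libraries. H3K36me3 rises at the end to 7.04 and 6.92 times the mean, H3K4me3 peaks at 6.19 times just outside the ends that carry it, and the inputs stay between 1.04 and 1.69 times.

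The H3K4me3 peak lay mainly outside the domain. In the last 5 kb outside the ends that carry it, H3K4me3 ChIP tags stood at 6.19 times their mean, and in the first 5 kb inside at 2.505 times. Of the 515 H3K4me3 regions, 113 had their centre below the lower end of the domain and 111 above the higher end. Unamplified input stood at 1.69 times its mean in those 5 kb outside and at 1.23 times just inside, which lowers the H3K36me3 ratio outside. The WGA input moved the other way, 1.04 times outside and 1.23 inside. The part of the inputs in where a domain ends was not tested.

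From 5 to 75 kb inside the end with H3K4me3 the ratio changed little. In the 132 domains with a single H3K4me3 region at an end, the pooled H3K36me3 ratio was 5.44 from 5 to 40 kb inside that end and 5.68 from 40 to 75 kb. The far stretch was higher in 61 of 132 domains, 46.2% (37.5 to 55.1), and the median of far over near was 0.980 (interquartile range 0.824 to 1.24). ChIP tags alone rose 1.10-fold from near to far, and the unamplified input rose 1.06-fold. Against the WGA input the pooled ratio rose 1.15-fold. The cause of these differences was not tested. From 5 to 10 kb inside the far end the ChIP stood at 7.77 times its mean, against 6.48 times at the H3K4me3 end, and the unamplified input at 1.40 against 1.13 times. The ratios there were 5.62 and 5.76. The bin with the most ChIP tags was not mostly near the H3K4me3 end in the 204 domains with H3K4me3 at 1 end. It fell in the near part of 3 equal parts in 76 domains, the middle part in 46 and the far part in 82.

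ChIP tags varied along domains, and so did the input. The coefficient of variation of H3K36me3 ChIP tags over the 5 kb bins of a domain had a median of 0.556, and of 0.501 over passing bins alone, while that of the unamplified input was 0.354. The ChIP varied more than the input in 391 of 428 domains. These values come from the libraries the rule used and are a description. The highest bin held a median of 2.57 times the tags of the median bin of its domain. Between adjacent stretches of 10 kb, 64.0% of 7669 inner borders showed a step in the ratio of under 1.5-fold, and 365 borders (4.76%), in 180 domains, a step of at least 3-fold. H3K4me3, which was not used to find these borders, was more frequent at the large ones. An H3K4me3 region lay within 5 kb of 37.0% (32.02 to 42.2) of steps of at least 3-fold, 15.5% (13.2 to 18.1) of those of 2 to 3-fold, 5.95% (4.83 to 7.25) of 1.5 to 2-fold and 2.44% (2.03 to 2.92) of smaller ones. The share over all borders was 6.25%. Neighbouring borders share bins, so these shares are not independent. The steps are in the ratio to the unamplified input, which was itself raised at H3K4me3 regions. It stood at 3.15 times its mean in the central kb of those inside domains. The part of the input in these steps was not tested.

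The gaps that the rule bridged also held H3K4me3 more often than the rest. Only 101 domains (23.6%) had no bridged bin, 129 had 1, 170 had 2 or 3 and 28 had 4 or 5. Of 652 bridged bins 163 overlapped an H3K4me3 region, 25% (21.7 to 28.5), against 173 of 8301 passing bins, 2.08% (1.79 to 2.41). Bridged bins held a median of 29 ChIP tags and 56.5 input tags, and passing bins 114 and 52. The bridged bins with H3K4me3 had more input, at 1.82 times the autosomal mean, than those without, at 1.11 times. Both kinds held few ChIP tags, with medians of 30 and 28, which follows in part from the rule they failed. Their pooled H3K36me3 ratios were 0.876 with H3K4me3 and 1.499 without. In 217 of the 652 bridged bins the ChIP was under 20 tags, so these failed by ChIP depth whatever the input. Whether the input had a part in the share of bridged bins with H3K4me3 was not tested. Domains with H3K4me3 only inside were free of bridged bins in 5 of 60 cases, against 35 of 129 domains without H3K4me3.

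H3K36me3 dropped at the H3K4me3 regions in domain interiors and was higher on both sides. The high values on both sides follow in part from the rule. These H3K4me3 regions lay inside domains, where at most 1 failing bin in a row was bridged. Around the 217 inner H3K4me3 regions with at least 10.5 kb of domain on each side, the H3K36me3 ChIP stood at 1.09 times its mean in the central kb, 4.80 and 4.13 times at 2 kb to either side, and 9.55 and 9.47 times at 8 kb. H3K4me3 reached 19.1 times its mean in the centre. The unamplified input reached 3.15 times there, and it was 1.49 and 1.43 times at 8 kb, so the drop was present in ChIP tags and larger in the ratio, which was 0.348 in the centre. The WGA input stood at 0.691 times in the centre.

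**Figure D5:**
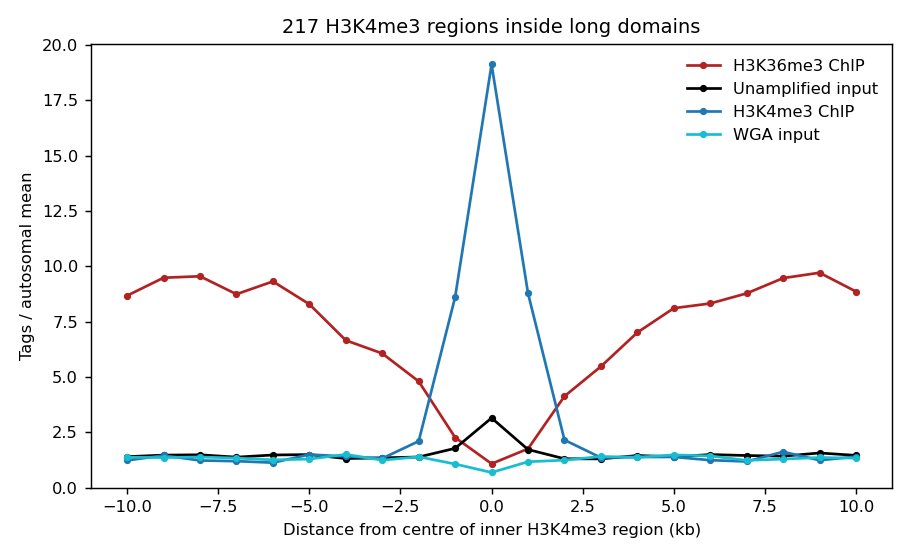
Tags divided by the autosomal mean in 1 kb steps around the centres of 217 H3K4me3 regions inside long domains, for the 4 libraries. H3K36me3 falls from 9.55 times at 8 kb to 1.09 times in the central kb, where H3K4me3 reaches 19.1 times and the unamplified input 3.15 times. High H3K36me3 on both sides follows in part from the choice of places inside domains.

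The sides of an inner H3K4me3 region differed in part of the cases. Of 240 such regions, 81 (33.8%) had H3K36me3 ratios from 2 to 10 kb outward that differed at least 2-fold between sides and 36 (15.0%) at least 3-fold, with a median of 1.67-fold. H3K36me3 inside the H3K4me3 region itself was rare. It reached 20 tags and a ratio of 2 in 17 of 515 regions at long domains, 3.30% (1.93 to 5.23), close to the 3.97% (3.42 to 4.57) at other H3K36me3 regions. Among H3K4me3 regions more than 5 kb from any H3K36me3 region the share was 0.208%. That low value largely follows from the rule, since the same minimum tags and ratio define a passing H3K36me3 bin. An example, chosen after its values were seen, lay on chromosome 17 (35444001 to 35447000) inside a domain with 6 H3K4me3 regions. It held 273 H3K4me3 ChIP against 3 WGA input tags. H3K36me3 numbered 382 ChIP and 84 input tags, which gives a ratio of 10.04.

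In the domain bodies H3K4me3 ChIP tags were at their library mean, while the ratio to the WGA input was below 1. Outside H3K4me3 regions and 2 kb around them, there were 133505 H3K4me3 ChIP and 53647 WGA input tags, which gives a ratio of 0.822 (0.814 to 0.830). The ChIP stood there at 1.01 times its autosomal mean and the WGA input at 1.21 times. The ratio was 0.765 (0.762 to 0.769) in H3K36me3 regions under 80 kb and 0.935 over the autosomes outside H3K36me3 and H3K4me3 regions. For the last value the 2 kb around H3K4me3 regions were not left out, so it is not fully comparable. Of the 428 bodies 334 (78.0%) were below 1, and the 5th to 95th percentile was 0.552 to 1.22. Over the domains the unamplified input stood at 1.26 times its autosomal mean, and 1.21 times was the value of the amplified one. The unamplified input exceeded its mean in 254 domains and the WGA input in 332.

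The 129 domains without an H3K4me3 region within 5 kb had a median width of 95 kb, as did those with H3K4me3 at 1 end and at both ends, against 105 kb with H3K4me3 only inside. They included the widest pair, although the share with H3K4me3 rose with width as given above. Their median H3K36me3 ratio was 4.62 (interquartile range 3.81 to 5.45), against 5.21 (4.45 to 6.14) with H3K4me3 at 1 end, 5.58 (5.07 to 6.15) at both ends and 4.85 (3.94 to 5.59) inside only, and these ranges overlapped. The unamplified input over them was close to that of domains with H3K4me3 at 1 end, with medians of 1.12 times the mean in both. The 1 kb bin with the most H3K4me3 ChIP tags held 7 to 32 tags in these domains (median 11), and these domains were chosen for holding no called bin. In 103 of the 129 no bin passed an unadjusted p of 0.05 in the binomial test, and in 26 at least 1 did. Each of these domains had 2 to 20 tested bins. Some bins can pass an unadjusted threshold without enrichment, so the 26 are not a count of missed H3K4me3 regions. Against the deeper unamplified input 74 of the 129 gained an H3K4me3 call and 55 did not, so the group depends on the input used.

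H3K4me3 was often found a little farther out. In these 129 domains H3K4me3 ChIP tags rose to 1.71 times their mean from 10 to 5 kb outside the ends, beyond the 5 kb searched. The nearest H3K4me3 region lay within 10 kb of 28 of them, within 20 kb of 53 (41.1%) and within 50 kb of 89, with a median distance of 25 kb. For the 245 kb domain of chromosome 13 it was 14 kb away and for the 240 kb domain of chromosome 12 it was 56 kb away. The other 3 of the 5 widest domains without H3K4me3 were those of chromosome 1 at 10030001 (5 kb away), chromosome 7 (55940001 to 56105000, 165 kb, 21 kb away) and chromosome 17 (74445001 to 74610000, 165 kb, 10 kb away). The last of these passed in all 33 bins, with 3016 ChIP and 1140 input tags, a ratio of 5.84 (5.45 to 6.26). In 14 of the 129 domains the nearest H3K4me3 region was at least 100 kb away, and in 1, on chromosome 4 (80745001 to 80870000), 1103 kb. That domain was chosen after its value was seen.

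Long domains were unevenly spread over chromosomes. There were 0.181 per covered Mb over the autosomes, with 46 on chromosome 5 (0.316 per Mb, exact Poisson interval 0.232 to 0.422), 32 on chromosome 11 (0.270, 0.185 to 0.381) and 38 on chromosome 4 (0.255, 0.180 to 0.350). Chromosome 3 had 17 (0.109, 0.0634 to 0.174) and chromosome 8 had 15 (0.120, 0.0672 to 0.198). The intervals of chromosomes 5 and 3 did not overlap, but these are the highest and the lowest value, picked after the values were seen. Of the regions of chromosome 5, 7.18% were long domains, and on chromosome 11, with the higher input depth (1.31 against 1.11 times the mean), 4.55%. On chromosome 16, with an input depth of 0.892 times the mean, the share was 6.23%. The part of input depth in these numbers was not tested. Among the 428 long domains, 20 neighbouring pairs lay at most 50 kb apart.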

How the data were processed

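Each deposited file is a list of placed tags, 1 per line, with chromosome, position and strand sign. The authors deposited no normalised values. The positions are in mm8, per the submitters' processing notes, and the tags are uniquely placed, per the file names. For the aligner and the read length, nothing is given in the sources used here. Tags at the same position and sign were kept once, which removed 27.5% of the tags of the WGA input and none of the others. This left 7606197 (H3K4me3 ChIP), 2513019 (WGA input), 10466543 (H3K36me3 ChIP) and 23110768 (unamplified input) nuclear tags. Tags were shifted by 75 bp along their sign and counted with numpy 2.4.6. Inputs were scaled by library totals, so background lies below a ratio of 1. Outside H3K36me3 regions the H3K36me3 ratio was 0.361. Autosomal means were taken over 10 kb bins with an input tag. Intervals are Clopper-Pearson or exact Poisson (scipy 1.17.1). The H3K4me3 test was also run on simulated tags, and the outcome is not given here. Named domains are the 12 widest, the 6 highest and 6 lowest by ratio, the 5 with most H3K4me3 regions and the 5 widest without. Domains of chromosome 18 were counted but not named one by one, which leaves the first 5 of the 6 highest. Members, lists and settings were chosen with earlier results of these data known. Steps, inner flanks and distances beyond 10 kb were chosen after seeing the data.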

Additional observations from a re-analysis of the deposited data

Results flagged for a closer look

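The X chromosome was left out of every comparison above and still held 6 H3K36me3 regions of at least 80 kb under the same rule, out of 387 regions there. This is 0.0392 per covered Mb (exact Poisson interval 0.0144 to 0.0853), with the unamplified input at 0.398 times the autosomal mean. The domain with the highest ratio spanned 147180001 to 147280000 and held 1541 H3K36me3 ChIP and 439 input tags, which gives a ratio of 7.75 (6.96 to 8.64). The widest spanned 102000001 to 102130000 (130 kb), with 999 against 502 tags and a ratio of 4.39 (3.94 to 4.90).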

How the results depend on the processing

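No paired analysis was possible because each group had 1 library. The 428 long domains, 18.1 per 100 covered Mb, depended on how bins were joined and on the threshold. The number per 100 Mb was 7.77 with no gap bridged, where 183 of the 428 still held a stretch of 80 kb, and 29.7 with gaps of at most 2 bins. It was 28.3 with a ratio of at least 1.5, 7.90 with a ratio of at least 3 and 64.4 with the input scaled on background bins, where the widest reached 420 kb. Between 346 and 451 domains were found with other tag minimums, no shift, shifted bins or the WGA input. With the WGA input 288 of the 428 domains, 67.3%, overlapped a long domain. The median H3K36me3 ratio was 20.5 with background scaling. The share of domains with H3K4me3 was 42.3% by overlap, 76.4% within 10 kb, 82.2% within 20 kb (chosen after seeing the data) and 86.9% with H3K4me3 called against the unamplified input. With those calls the density was 17.0 per Mb, the share at an end 61.9%, and the share of bridged bins with H3K4me3 29.6%, against 7.64% of passing bins. Far over near H3K36me3 was 1.04 against its own input, 1.15 against the WGA input and 1.10 in ChIP tags alone, and the cause was not tested. The H3K4me3 ratio in domain bodies was 0.799 against the unamplified input. The other 15 of 31 alternatives stayed within the interval of the reported value (for the median ratio, 4.69 to 5.42, the medians of the single domains' bounds), or within 1.5-fold for the number of domains. With a median of 1 WGA input tag per H3K4me3 region, depth limits what can be said of single H3K4me3 heights.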
